A study of Mus musculus with 23 samples.

Results

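Gene expression in whole hippocampus was compared between 3xTg mice that received an inhibitor of stearoyl-CoA desaturase (SCDi) and 3xTg mice that received its vehicle. The comparison rests on 8 of the 23 libraries of the series. These are 4 libraries labelled as 3xTg with the inhibitor (3xTg-S) and 4 labelled as 3xTg with DMSO (3xTg-D), taken by their labels alone. Both groups carry human APPSwe and tauP301L transgenes under the neuron-specific Thy1.2 regulatory element and a further knock-in allele, so the model overproduces mutant APP and tau in neurons and no group lacks the transgenes. All 8 mice were female and 10 months old, and all had an osmotic pump into the lateral ventricles for 28 days. The pump delivered 0.11 µl per hour of artificial cerebrospinal fluid with 0.8% DMSO, with 80 µM of the inhibitor ab142089 in 3xTg-S and none in 3xTg-D. Each library is 1 animal by its label, and p-values measure the spread between these animals. Wild-type mice of the C57BL/6J × 129S1 background had the same infusions (WT-S, n = 3, and WT-D, n = 4), and 8 untreated mice of 8 months (3xTg-8M, n = 4, and WT-8M, n = 4) complete the series. In a bulk sample, fewer cells of a type and less RNA per cell cannot be told apart.

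Stearoyl-CoA desaturases sit in the endoplasmic reticulum and place the first double bond into saturated fatty acyl-CoAs, which turns palmitate and stearate into palmitoleate and oleate. The products go into membrane phospholipids, triglycerides, cholesteryl esters and, in brain, into myelin lipids made by oligodendrocytes. The mouse has several Scd genes, of which Scd2 is the form known best from brain and Scd1 the form known best from liver and fat. Sterol regulatory element binding proteins and liver X receptors are known to drive their transcription.

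Transcripts of the targeted enzymes were at near the same level in both groups. Scd1 (chromosome 19, 44394455 to 44407879, GRCm38) was at 136, 131, 171 and 152 CPM (counts scaled to the size of the library) in 3xTg-D replicates 1 to 4 and at 131, 131, 125 and 138 CPM in 3xTg-S. The ranges overlapped, with 3xTg-D replicates 3 and 4 above every 3xTg-S library, and the log2 fold change was -0.17 (SE 0.08, unadjusted p = 0.0474, edgeR quasi-likelihood test). Scd2 was at 1367 to 1473 CPM in 3xTg-D and 1363 to 1418 CPM in 3xTg-S, with a log2 fold change of -0.04 (SE 0.05). Scd3 stayed at 1.92 to 3.44 CPM in all 8 libraries, and Scd4 had too few reads to be tested. Of the fatty acid desaturases that act on polyunsaturated chains, Fads1 (log2 fold change -0.07), Fads2 (-0.04) and Fads6 (-0.02) had p-values of 0.188 or more. Fads3 was at 23.6 to 28.5 CPM in 3xTg-D and 28.3 to 29.2 CPM in 3xTg-S, with a log2 fold change of 0.15 (unadjusted p = 0.0416). Enzyme activity was not measured in these libraries.

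The libraries held 13678264 to 16417906 gene counts, and Pearson's r of log2 CPM across genes was 0.986 to 0.994 within the groups. The loci that match or drive the transgenes were similar in both groups, with log2 fold changes of 0.01 for Thy1, -0.09 for App and 0.07 for Mapt, and p-values of 0.229 or more. Reads from the human transgenes may be counted at the mouse loci. The 8 neuron markers had a summed level of 7170 to 7554 CPM in 3xTg-D and 6828 to 7443 CPM in 3xTg-S.

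Over all genes, short housekeeping transcripts such as those of mitochondrial respiration and ribosomes were higher in 3xTg-S, and long transcripts such as those of chromatin regulators and synaptic receptors were lower. The differences were small, and none passed correction for multiple tests in edgeR with a filter on low counts. Without that filter edgeR called 112 genes, 103 of them among the genes tested with it. Of 15530 genes tested, edgeR called 0 (0% of genes) at a Benjamini-Hochberg adjusted p under 0.05, and the smallest adjusted p was 0.378. An unadjusted p under 0.05 was reached by 1733 genes (11.2%). At the study's cut-off of 0.01 for unadjusted p-values it was 2.52% of genes, 180 higher (1.16%) and 211 lower (1.36%) in 3xTg-S, where 1% of the tested genes is 155. Their median absolute log2 fold change was 0.27 and 0.23. The 2 groups did not overlap for 1064 genes (6.85%), 567 higher (3.65%) and 497 lower (3.2%). The likelihood ratio test of DESeq2, which gave an adjusted p to 4992 genes only, called 14 genes, 12 of them lower. The 14 had a median transcript length of 8383 nt, and DESeq2 called 0 genes with the length correction described below. Among the lower ones were Erbb4 (log2 fold change -0.345), the neuregulin receptor, and Cnr1 (-0.23), the cannabinoid receptor of presynaptic terminals. Cnr1 is named here after its value was seen. Hereafter "passed" refers to the unadjusted p under 0.01 unless another threshold is given.

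The genes that passed differed in the length of their transcripts, taken as the longest annotated transcript of the gene. Higher genes had a median length of 1414 nt and lower genes of 7099 nt, against 3339 nt for all tested genes. In the shortest of 10 equal bins (57 to 1316 nt), 78.8% were higher in 3xTg-S, the median log2 fold change was 0.145, and 83 genes passed as higher and 0 as lower. In the longest bin (6797 to 123179 nt), 12.4% were higher, the median was -0.11, and 2 genes passed as higher and 115 as lower. Across 15521 genes with a length, which are not independent replicates, Spearman's rho of log2 fold change and length was -0.446.

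The trend separated all 3xTg-S libraries from all 3xTg-D libraries and was steepest in 1 of them. The median centred log2 CPM of the shortest bin was -0.03, -0.11, -0.09 and -0.03 in 3xTg-D replicates 1 to 4. In 3xTg-S it was 0.05, 0.24, 0.01 and 0.02, so that replicate 2 stood far above the other 3. The slope of centred log2 CPM on log2 length was 0.0204 to 0.0486 in 3xTg-D. It was -0.021, -0.105, 7.1e-05 and -0.012 in 3xTg-S replicates 1 to 4, and the groups did not overlap. The mean slopes differed by -0.0692 (two-sided exact permutation p = 0.0286, the smallest that 4 against 4 libraries allow, and 0.0953 after Benjamini-Hochberg over 10 library measures). Without 3xTg-S replicate 2 the difference was -0.0453. The same p was given by the slope on GC content and by the share of unmapped reads, at 3.34% to 3.48% in 3xTg-S and 3.01% to 3.33% in 3xTg-D. In libraries that had no inhibitor, the steepest slope was -0.13 in 3xTg-8M replicate 4. Whether the trend comes from RNA integrity, library preparation or the animals was not tested. The paper gives a lower bound of RNA integrity that all samples exceeded, but no value per library was available.

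**Figure D1:**
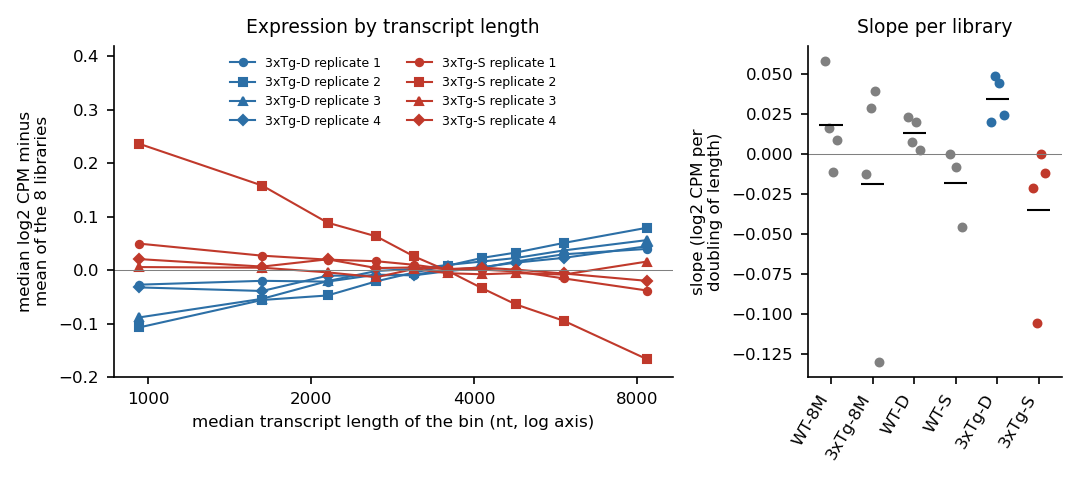
Left, the median log2 CPM of the genes in each of 10 bins of transcript length (log axis, nt), centred on the mean of the 8 libraries, with 1 line per library (blue, 3xTg-D, red, 3xTg-S). Right, the slope of centred log2 CPM per log2 unit of length in each library of the series, with a bar at the group mean. 3xTg-S replicate 2 falls from 0.24 to -0.17 between the shortest and the longest bin, the other 3xTg-S libraries lie close to 0, and all 3xTg-D libraries rise. Slopes are centred within each pair of groups, so levels compare within a pair only.

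Removing the length trend from each library left fewer genes past the threshold. With a smooth function of length fitted per library as an offset, 0 genes (0%) were called at an adjusted p under 0.05 (edgeR, smallest adjusted p 0.789). An unadjusted p under 0.05 was reached by 936 genes (6.03%; 3.43% higher and 2.59% lower), and 123 (0.792%) passed at 0.01, where 1% is 155. Of these, 70 were higher (0.451%) and 53 lower (0.341%), with median lengths of 3670 and 3569 nt. Spearman's rho with length became -0.03, while rho with GC content went from 0.26 to 0.193. Genes that passed in both fits numbered 87, 48 higher and 39 lower. Another 304 passed only without the correction (median length 1220 nt for 132 higher genes and 7658 nt for 172 lower genes), and 36 only with it. The 2 groups did not overlap for 631 genes (4.06%) after the correction, 2.41% higher and 1.65% lower.

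**Figure D2:**
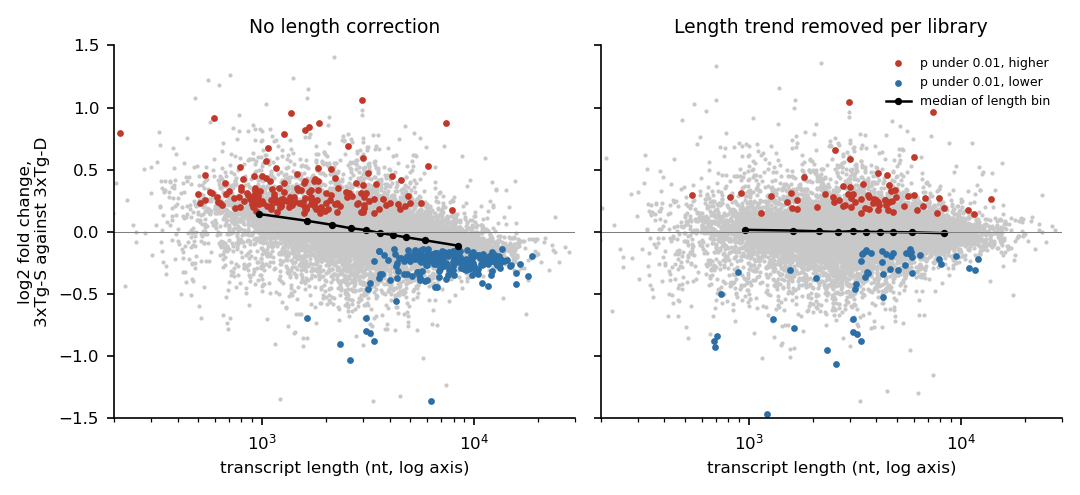
The log2 fold change of each tested gene between 3xTg-S and 3xTg-D against transcript length (log axis, nt), without correction (left) and with the length trend of each library removed (right). Coloured points passed at an unadjusted 0.01 (180 higher and 211 lower on the left, 70 and 53 on the right), and the black line is the median of each of 10 bins of length, from 0.145 to -0.11 on the left. A few genes lie outside the axes, 44 on the left and 43 on the right, 5 of them past the threshold in each panel.

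The respiratory chain and ATP synthase of mitochondria are built mostly from nuclear-encoded subunits with short mRNAs. Of 79 such genes tested (median length 1005 nt), 77 were higher in 3xTg-S, 53 had an unadjusted p under 0.05 as higher and 0 as lower, against 5.65% and 5.51% of all genes. All 16 genes of the list that passed at 0.01 were higher, against 1.16% of all genes. They covered complex I (Ndufa3, Ndufa5, Ndufa11, Ndufb11, Ndufs4 and, in the older naming, Ndufa4), complex II (Sdhd), complex III (Uqcr10, Uqcrq), complex IV (Cox6b1, Cox6c, Cox7b) and ATP synthase (Atp5d, Atp5e, Atp5j2, Atp5mpl). The summed level of the list was 8771 to 9558 CPM in 3xTg-D and 9639 to 11260 CPM in 3xTg-S, with replicate 2 highest, and the groups did not overlap. The median log2 fold change of the list was 0.178 without correction and 0.069 with it, beside -0.002 and 0.002 for all genes. In the shortest bin of all tested genes (57 to 1316 nt) the medians were 0.145 and 0.017. Without correction 78.8% of that bin were higher, so most short genes were higher. With the correction, 18 of the 79 were higher at an unadjusted p under 0.05 (3.43% of all genes) and 4 passed at 0.01 (0.451%). Without 3xTg-S replicate 2 the median was 0.107 with 26 genes higher and 1 lower at 0.05. After the correction it was 0.048 with 5 higher, an alternative chosen after seeing the data. With length and GC trends removed from all 8 libraries, the median was 0.062, with 20 higher at 0.05 and 9 past 0.01. Of all 15530 genes, 89 passed as higher in that fit. With the trend on median transcript length, chosen after seeing the data, the median was 0.117, with 23 higher at 0.05 and 3 past 0.01. Of all 15530 genes, 107 passed as higher there. Shares of all genes at 0.05 were not counted for these alternatives, here or for the lists below.

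Uqcrq, a small subunit of complex III (chromosome 11, 53427922 to 53430831), was at 64.2, 57.4, 54.2 and 61.5 CPM in 3xTg-D and 72.2, 88.5, 68.8 and 69.2 CPM in 3xTg-S. The groups did not overlap, replicate 2 was highest in 3xTg-S, and the log2 fold change was 0.33 (SE 0.09, unadjusted p = 0.00191), or 0.24 (SE 0.06, unadjusted p = 0.00242) with the length trend removed. Atp5e, the epsilon subunit of ATP synthase, was at 59.1 to 68.7 CPM in 3xTg-D and at 76.2, 101, 72.7 and 72.6 CPM in 3xTg-S (log2 fold change 0.34, unadjusted p = 0.00525, and 0.26, unadjusted p = 0.00613, after the correction). Ndufa11, an accessory subunit of complex I, was at 40.5 to 44.1 CPM in 3xTg-D and at 52.0, 63.4, 45.1 and 45.4 CPM in 3xTg-S (0.30, unadjusted p = 0.00974), and missed the threshold after the correction (0.16, unadjusted p = 0.033). The 8 tested mRNAs of the mitochondrial genome itself had a median log2 fold change of 0.068 without and -0.063 with the correction, and 0 of 8 had an unadjusted p under 0.05 in either fit.

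Nuclear respiratory factor 1 (NRF1) is a transcription factor known to bind a palindrome in promoters of many respiratory genes, so the promoters of the list were searched for it. Promoter sequence of RefSeq (GRCm38.p6, 250 bases before the start site) was found for 63 of the 79 genes. The palindrome CGCATGCG was present in 6 of them (9.52%), against 1.58% of 27025 promoters and 2.99% of the 11548 promoters of tested genes. The ETS motif CCGGAAGT, read on both strands, was in 3 of 63 (4.76%), against 2.93% and 5.52%. A match describes the letters and not binding. The 6 promoters that held the palindrome are shown because they carry the letters known for this gene group, with the palindrome in capitals and 60 bases of each printed 5′ to 3′ on the strand of the gene.
Ndufa8 (chr2:36049339-36049398, minus strand): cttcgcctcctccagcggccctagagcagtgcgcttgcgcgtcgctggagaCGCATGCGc
Atp5k (chr5:108434415-108434474, minus strand): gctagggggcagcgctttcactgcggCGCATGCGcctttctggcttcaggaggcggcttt
Cox6a1 (chr5:115349086-115349145, minus strand): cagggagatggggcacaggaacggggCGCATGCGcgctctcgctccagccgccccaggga
Atp5l (chr9:44920933-44920992, minus strand): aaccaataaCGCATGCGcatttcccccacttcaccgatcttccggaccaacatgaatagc
Atp5g2 (chr15:102671055-102671114, minus strand): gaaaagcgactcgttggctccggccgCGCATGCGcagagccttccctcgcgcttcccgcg
Ndufa11 (chr17:56717677-56717736, plus strand): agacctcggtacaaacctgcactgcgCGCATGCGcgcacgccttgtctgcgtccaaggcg
Their log2 fold changes were 0.10 for Ndufa8, 0.25 for Atp5k, 0.20 for Cox6a1, 0.06 for Atp5l, -0.09 for Atp5g2 and 0.30 for Ndufa11, of which Ndufa11 alone passed. After the length correction they were -0.03, 0.09, 0.04, 0.14, -0.22 and 0.16, so the genes that share the palindrome did not share a direction.

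Cytosolic ribosomal proteins form the other large group of short mRNAs. Of 82 tested (median length 1076 nt), 81 were higher in 3xTg-S. An unadjusted p under 0.05 was reached by 43, all of them higher, against 5.65% of all genes. At 0.01, 13 passed, against 1.16% of all genes as higher. Among the 13 were Rplp1 (114 to 135 CPM in 3xTg-D, 139 to 181 CPM in 3xTg-S), a protein of the ribosomal stalk, and Rpl29 (18.9 to 22 CPM against 23.4 to 27.4 CPM), a protein of the large subunit. The median log2 fold change was 0.185, and 0.077 after the correction. In the shortest bin of all tested genes the medians were 0.145 and 0.017, and 78.8% were higher without correction. With the correction, 17 ribosomal genes were higher at 0.05 (3.43% of all genes). At 0.01, 3 passed with it (Rps20, Rps19 and Rpl18), against 0.451% of all genes as higher. Without 3xTg-S replicate 2 the median was 0.122 with 24 genes higher at 0.05, and 8 after the correction. With length and GC trends removed from all libraries, the median was 0.076 with 18 higher at 0.05. With the trend on median transcript length, chosen after seeing the data, it was 0.124 with 23 higher. Ribosomal protein genes have many processed copies in the genome, so their unique read counts are uncertain. The ETS motif was in 8 of 60 promoters of this list (13.3%), and the NRF1 palindrome in 0 of 60.

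The correction for length depends on which transcript stands for the gene. Rps20 has a longest annotated transcript of 3706 nt and a median transcript of 582 nt, Rpl18 has 2989 and 535 nt, and Cox6c 3038 and 627 nt. These genes are short in most of their transcripts but were treated as genes near the median length of 3339 nt. The median log2 fold changes of their length bins were 0.015 and -0.008, so the correction left their fold changes almost as they were. With the median transcript length in its place, an alternative chosen after seeing the data, Rps20 still passed (log2 fold change 0.20, unadjusted p = 0.00711), as did Rpl18 (unadjusted p = 0.00792), Uqcrq (unadjusted p = 0.00435) and Atp5j2 (unadjusted p = 0.00559). Rps19 (unadjusted p = 0.013), Atp5e (unadjusted p = 0.0127) and Cox6c (unadjusted p = 0.0187) did not. This form of the correction left 284 genes past 0.01, 107 higher and 177 lower, against 123 with the longest transcript. How much of the trend it left was not measured.

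Chromatin regulators, which modify histones or remodel nucleosomes and have long mRNAs, were lower. Of 29 tested (median length 8857 nt), 28 were lower in 3xTg-S with a median log2 fold change of -0.14. An unadjusted p under 0.05 was reached by 11 as lower, against 5.51% of all genes. In the longest bin of all tested genes, 12.4% were higher and the median was -0.11, so most long genes were lower. The list included the histone methyltransferase Kmt2a, at 177, 197, 215 and 177 CPM in 3xTg-D and 158, 140.3, 176 and 165 CPM in 3xTg-S (log2 fold change -0.26, SE 0.08, unadjusted p = 0.00566). The groups of Kmt2a were separated by less than 1 CPM, and the corrected log2 fold change was -0.11 (unadjusted p = 0.0875). The chromodomain remodellers Chd3 (-0.14, unadjusted p = 0.0203) and Chd6 (-0.15, unadjusted p = 0.0181) were lower as well. With the length trend removed the median of the list was -0.02 and 0 of 29 had an unadjusted p under 0.05. With length and GC trends removed it was -0.054 with 3 lower at 0.05, and with the trend on median transcript length, chosen after seeing the data, -0.107 with 9 lower.

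Most genes of the synapse lists, many of them long, had small negative log2 fold changes, and few reached an unadjusted p of 0.05. Of 39 genes for glutamate receptors and the postsynaptic scaffold, 34 were lower, with a median log2 fold change of -0.07. At an unadjusted p under 0.05, where 5.51% of all genes were lower, 4 of the 39 were lower, the AMPA receptor subunits Gria2 (-0.13) and Gria4 (-0.12), the metabotropic receptor Grm5 (-0.19) and the scaffold Dlg2 (-0.15). After the correction the median was 0.002, 19 of 39 were lower, and 0 were lower at 0.05. Of 19 genes for GABA synthesis, transport and receptors, 16 were lower, 4 of them at 0.05 before and 3 after the correction. With the correction, 2.59% of all genes were lower at 0.05. Gad2, the GABA-synthesising enzyme of axon terminals, was at 196, 208, 214 and 206 CPM in 3xTg-D and 178, 177, 176 and 191 CPM in 3xTg-S. The groups did not overlap, and the log2 fold change was -0.20 (SE 0.05, unadjusted p = 0.00143), or -0.13 (SE 0.04, unadjusted p = 0.0112) after the correction. The receptor subunit Gabrg3 was at 24.6 to 29.2 CPM in 3xTg-D and 20.6 to 23.7 CPM in 3xTg-S (-0.28, unadjusted p = 0.00236, and -0.17, unadjusted p = 0.0465).

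Of 30 genes of synaptic vesicle release, 21 were lower without the correction and 14 with it. Rims2, a scaffold of the presynaptic active zone (chromosome 15, 39198261 to 39684372), was at 104, 104, 105 and 99.2 CPM in 3xTg-D and 87.8, 85.3, 85.4 and 96.1 CPM in 3xTg-S. All 3xTg-S libraries lay below all 3xTg-D libraries, and the log2 fold change was -0.21 (SE 0.05, unadjusted p = 0.00127), or -0.17 (SE 0.05, unadjusted p = 0.00302) with the length trend removed. It was the 1 gene of these 3 synaptic lists that passed at 0.01 in both fits. The test of the difference between strains gave unadjusted p = 0.00801 for Rims2, before adjustment for multiple tests. Rims2 had a log2 fold change of 0.01 in WT-S against WT-D. The 3xTg libraries that chose Rims2 are also part of the test between strains.

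Where the mean was at least 5 CPM and the groups did not overlap, 40 genes were higher and 27 lower in both fits, and those with the largest differences are described here. Mob3b, a member of the MOB family of kinase activators (chromosome 4, 34949074 to 35157484), was at 4.65, 4.49, 3.43 and 4.19 CPM in 3xTg-D and 6.44, 6.51, 5.53 and 5.63 CPM in 3xTg-S. Its log2 fold change was 0.53 (SE 0.14, unadjusted p = 0.00193), and 0.60 (SE 0.14, unadjusted p = 0.000884) with the length trend removed, so that a gene of 6030 nt was higher against the trend. Its locus also holds Ifnk, which can share reads. Atox1, the chaperone that hands copper to the secretory pathway (chromosome 11, 55446641 to 55461239), was at 14.7, 13.1, 12.2 and 15.1 CPM in 3xTg-D. In 3xTg-S it was at 19.5, 20.4, 17.9 and 17.9 CPM, all above the highest 3xTg-D library (log2 fold change 0.46, SE 0.09, unadjusted p = 0.000221, and 0.30, SE 0.08, unadjusted p = 0.00183). Commd1, a protein with roles in copper handling and endosomal sorting (chromosome 11, 22896136 to 22982382), was at 8.38 to 11.6 CPM in 3xTg-D and 12.2 to 14.5 CPM in 3xTg-S (0.42, unadjusted p = 0.0033, and 0.46, unadjusted p = 0.00224). Commd1 overlaps Gm28048 on the same strand and Zrsr1 on the other, so its value is uncertain.

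Tmem86a, an enzyme that breaks down lysoplasmalogen lipids (chromosome 7, 47050601 to 47054777), was at 6.34 to 7.18 CPM in 3xTg-D and at 8.59, 12.3, 7.67 and 9.84 CPM in 3xTg-S. Its log2 fold change was 0.52 (SE 0.14, unadjusted p = 0.0033), or 0.44 after the correction, and 3xTg-S replicate 2 was highest. Enho, which encodes the secreted peptide adropin, was at 19.6 to 24.8 CPM in 3xTg-D and at 26.5, 34.8, 25.8 and 25.6 CPM in 3xTg-S (0.39, unadjusted p = 0.00336, and 0.29, unadjusted p = 0.00566). Its gene overlaps Dnaic1 on the other strand. Kmt5c, a methyltransferase for lysine on histone H4, was at 7.0 to 7.35 CPM in 3xTg-D and 8.21 to 10.3 CPM in 3xTg-S (0.39, unadjusted p = 0.00272, and 0.37, unadjusted p = 0.00376). It was higher while most genes of the chromatin list were lower, and it was not a member of that list.

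The other genes of the 12 most higher had log2 fold changes between 0.38 and 0.45. They were Susd5 (0.45), Gng11 (0.45), a gamma subunit of G proteins, Tmem160 (0.42), Tspan17 (0.39), a tetraspanin of the subfamily that binds the protease ADAM10, Afap1l1 (0.39), a protein that binds actin filaments, and Rpl18 (0.38). In all 12 the 4 libraries of 3xTg-S lay above the 4 of 3xTg-D, which the rule for naming them required.

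Adra1a, the alpha-1A adrenergic receptor for noradrenaline (chromosome 14, 66635251 to 66771168), had the largest negative difference of the named genes. It was at 9.44, 8.19, 9.82 and 8.03 CPM in 3xTg-D and 5.77, 5.79, 4.94 and 7.67 CPM in 3xTg-S, where replicate 4 came close to 3xTg-D. The log2 fold change was -0.55 (SE 0.14, unadjusted p = 0.00187), or -0.52 (SE 0.14, unadjusted p = 0.0023) with the length trend removed. Klf12, a zinc finger repressor of transcription (chromosome 14, 99870632 to 100284679), was at 27.6, 31.9, 33.0 and 30.4 CPM in 3xTg-D and 23.2, 19.1, 26.6 and 24.9 CPM in 3xTg-S (-0.39, unadjusted p = 0.00156, and -0.33, unadjusted p = 0.00236). Slc5a3, the carrier that takes up myo-inositol (chromosome 16, 92058322 to 92087473), was at 41.7 to 57.2 CPM in 3xTg-D and 35.6 to 40.3 CPM in 3xTg-S (-0.41, unadjusted p = 0.000668, and -0.29, unadjusted p = 0.00713). Slc5a3 shares its strand and position with Mrps6, so its count is uncertain.

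Erbb4, the neuregulin receptor found mainly on GABA neurons (chromosome 1, 68032186 to 69108059), had the smallest p-value of the named genes. It was at 89.0, 98.5, 82.0 and 83.0 CPM in 3xTg-D and 67.4, 70.1, 72.7 and 67.5 CPM in 3xTg-S, with every 3xTg-S library below every 3xTg-D library. The log2 fold change was -0.34 (SE 0.06, unadjusted p = 0.00014, adjusted p = 0.378), or -0.21 (SE 0.06, unadjusted p = 0.00536) after the correction. Brwd3, a bromodomain protein (20.0 to 24.3 CPM in 3xTg-D and 15 to 17.8 CPM in 3xTg-S), had log2 fold changes of -0.43 (unadjusted p = 0.000249) and -0.31 (unadjusted p = 0.00129). Mbd4, a glycosylase that repairs mismatched thymine at CpG sites, was at 12.9 to 17.1 CPM in 3xTg-D and 10.7 to 12.1 CPM in 3xTg-S (-0.34, unadjusted p = 0.00568, and -0.33, unadjusted p = 0.00507). Olfm3, a secreted olfactomedin protein, had log2 fold changes of -0.34 and -0.30.

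The other 5 of the 12 most lower genes were A330008L17Rik (-0.41, unadjusted p = 0.00122, and -0.42, unadjusted p = 0.000949), 5330434G04Rik (-0.37), Stk32a (-0.35), a serine and threonine kinase, Gm29170 (-0.34) and Lcorl (-0.31), a DNA-binding protein. Gm29170 lies within Uchl5 on the same strand and its count is uncertain. Of all 88 genes named by the rule, 7 passed at 0.01 in all 30 settings tried, with and without the correction and with any replicate left out. They were Mob3b, Atox1, Uqcrq and Rps20, all higher, and Adra1a, Klf12 and A330008L17Rik, all lower.

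**Figure D3:**
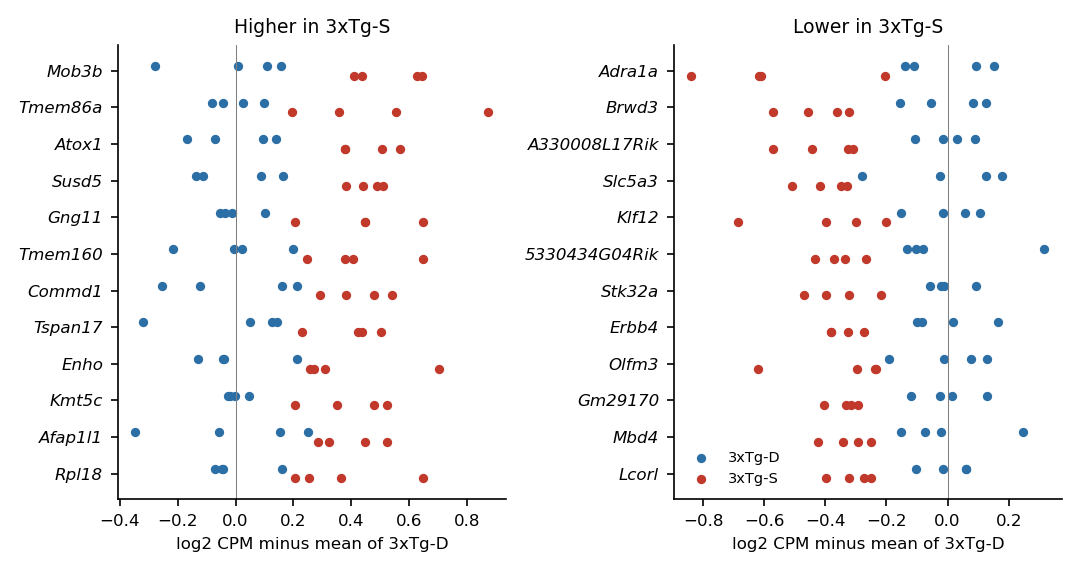
The log2 CPM of each library (points, blue for 3xTg-D and red for 3xTg-S, 4 each) minus the mean of the 4 3xTg-D libraries, for the 12 genes with the largest positive (left) and negative (right) log2 fold change among those that passed in both fits. The red and blue points do not overlap in any row, as the rule required, and the gap is narrow in genes such as Enho and Afap1l1 on the left and Olfm3 on the right.

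Some of the largest differences passed only without the correction. Hes5, a repressor induced by Notch signalling and known from neural stem cells and astrocytes, was at 5.01, 4.56, 1.87 and 4.98 CPM in 3xTg-D and 7.42, 6.18, 7.60 and 6.86 CPM in 3xTg-S. The log2 fold change of Hes5 was 0.79 (SE 0.23, unadjusted p = 0.00541), or 0.69 (unadjusted p = 0.0129), and the low level of 3xTg-D replicate 3 is part of it. Id1, an inhibitor of helix-loop-helix factors, had a log2 fold change of 0.52 (unadjusted p = 0.00654, and 0.0247 after the correction), and Rcn3, a calcium-binding protein of the endoplasmic reticulum, of 0.46. Lower by this criterion were Glra3 (-0.44), a glycine receptor subunit, Rbm15 (-0.38), an adaptor for RNA methylation, and Acan (-0.38). Acan encodes aggrecan, the core proteoglycan of perineuronal nets, and was at 5.59 to 6.33 CPM in 3xTg-D and 4.21 to 4.94 CPM in 3xTg-S. Genes that passed only with the correction included Clec14a (0.38), a lectin of endothelial cells, Ephb1 (0.33), an ephrin receptor, and Plod2 (0.30), a lysyl hydroxylase of collagen. On the lower side they were E130102H24Rik (-0.50), Tubd1 (-0.37), a tubulin of centrioles, and 3110040N11Rik (-0.32).

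Myelin genes were higher in 3xTg-S in a way that did not follow length. All 17 tested (median length 2904 nt) were higher, with a median log2 fold change of 0.261 without and 0.262 with the correction. At an unadjusted p under 0.05, 7 were higher before the correction (5.65% of all genes) and 6 after it (3.43%). Mbp, the major protein of compact myelin, was at 2497, 2112, 1623 and 2446 CPM in 3xTg-D and 2619, 2959, 2549 and 2645 CPM in 3xTg-S (log2 fold change 0.31, SE 0.11, unadjusted p = 0.0183). Fa2h, the enzyme that hydroxylates fatty acids of myelin sphingolipids, was at 28.2, 24.7, 21.9 and 28.9 CPM in 3xTg-D and 32.8, 34.6, 30.6 and 31.3 CPM in 3xTg-S. It was the 1 gene of the list that passed at 0.01 (0.32, SE 0.09, unadjusted p = 0.00302, and 0.28, unadjusted p = 0.00518). Mag, a myelin protein that faces the axon, did not overlap between the groups either (0.33, unadjusted p = 0.0126). The summed level of the list was 6652, 5617, 4193 and 6423 CPM in 3xTg-D and 6905, 7474, 6557 and 6770 CPM in 3xTg-S, so that 3xTg-D replicate 3 was lowest and 3xTg-D replicate 1 lay within the range of 3xTg-S. Without 3xTg-D replicate 3 the median was 0.129, still with 7 genes at 0.05. In WT-S against WT-D the median of the same genes was -0.05, with 6 of 17 higher.

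Of 13 markers of oligodendrocyte precursors and their lineage, 4 were higher and 1 lower at an unadjusted p under 0.05, with a median of 0.00. Of all genes, 5.65% were higher and 5.51% lower at 0.05. The transcription factor Olig1 was at 67.4, 62.4, 44.4 and 68.5 CPM in 3xTg-D and 72.2, 88.8, 72.0 and 75.8 CPM in 3xTg-S (0.35, unadjusted p = 0.0121), with 3xTg-D replicate 3 again lowest, and the precursor proteoglycan Vcan had a log2 fold change of -0.19 (unadjusted p = 0.0214). In 3xTg-D replicate 3 the summed level of blood genes was also low, at 4.82 CPM against 37.5 to 67.8 CPM in the other 3xTg-D libraries and 30.2 to 211 CPM in 3xTg-S. Their part in the myelin result was not tested.

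Markers of other cell types that a dissected hippocampus can carry varied between animals of a group. Mural cells, which wrap vessels, had 9 of 10 markers higher with a median log2 fold change of 0.306 (0.312 after the correction), and 3 at an unadjusted p under 0.05 in each fit. Of all genes, 5.65% were higher and 5.51% lower at 0.05, or 3.43% and 2.59% with the correction. Kcnj8, the potassium channel of pericytes, was at 1.31, 2.05, 2.11 and 1.92 CPM in 3xTg-D and 3.37, 2.96, 2.80 and 2.85 CPM in 3xTg-S, with no overlap (0.69, SE 0.19, unadjusted p = 0.00276, and 0.66, unadjusted p = 0.00346). The smooth muscle gene Tagln overlapped, at 5.30 to 12.1 CPM in 3xTg-D and at 19.6, 15.8, 6.93 and 16.1 CPM in 3xTg-S (0.76, unadjusted p = 0.0205). Without 3xTg-S replicate 1 the median of the mural list was 0.14 with 1 gene at 0.05. Of 15 endothelial markers 12 were higher, with a median of 0.116 (0.019 without 3xTg-S replicate 1), and at 0.05 2 were higher and 1 lower.

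The 13 meningeal markers tested had a median of 0.372 and summed levels of 411 to 811 CPM in 3xTg-D and 219 to 1022 CPM in 3xTg-S, with replicate 3 lowest. Without 3xTg-S replicate 1 the meningeal median was 0.107 (-0.007 corrected), and without 3xTg-S replicate 3 it was 0.655 with 7 genes higher at 0.05. Of the choroid plexus markers 10 of 14 were tested, with a sum of 47.8 to 139 CPM in 3xTg-D and 53.9, 266, 42.6 and 43.0 CPM in 3xTg-S, and 0 genes at 0.05. Their median of 0.138 turned to -0.387, with 4 genes lower at 0.05, without 3xTg-S replicate 2. All 5 blood genes were higher with a median of 1.22, and this rested on 3xTg-S replicate 2 at 211 CPM and on the low 3xTg-D replicate 3. Without 3xTg-S replicate 2 the blood median was 0.265, and 1 of 5 blood genes had an unadjusted p under 0.05 with all libraries. Of 9 thalamic markers 8 were lower (median -0.22, and -0.092 without 3xTg-D replicate 3), 0 of them at 0.05. Of 12 ependymal markers 10 were higher (median 0.214, from 0.067 without 3xTg-D replicate 3 to 0.424 without 3xTg-D replicate 1), 2 of them at 0.05. Of all genes, 5.65% were higher at 0.05.

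Astrocyte genes had no common direction. Of 16 homeostatic markers 8 were higher and 8 lower, and S100b (89.3 to 125 CPM in 3xTg-D and 133 to 166 CPM in 3xTg-S, 0.34, unadjusted p = 0.00536) passed without the correction only. Of 13 genes known from reactive astrocytes, 1 passed, where 1.16% of all genes passed as higher. Vim, the intermediate filament vimentin (chromosome 2, 13573927 to 13582826), was at 58.5, 59.8, 63.8 and 55.3 CPM in 3xTg-D and 81.3, 69.6, 78.0 and 67.0 CPM in 3xTg-S. All 3xTg-S libraries were above all 3xTg-D libraries (0.32, SE 0.07, unadjusted p = 0.000748, and 0.30, SE 0.07, unadjusted p = 0.000921). Vimentin is also made by endothelial, mural, meningeal and ependymal cells, whose markers were higher in the median, and their part in its value was not tested.

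None of the 5 immune lists held a gene that passed at 0.01. Without the correction, 1.16% of all genes passed as higher and 1.36% as lower, and at 0.05 it was 5.65% and 5.51%. Of 18 homeostatic microglia genes 16 were higher, with a median log2 fold change of 0.131 and 0.075 in the 2 fits, and 1 (Fcrls, 0.26) had an unadjusted p under 0.05. The microglia medians were 0.008 and -0.028 without 3xTg-D replicate 3, and without 3xTg-D replicate 4 they were 0.245 and 0.173, with 7 genes higher at 0.05 in the uncorrected fit. Of 17 genes of disease-associated microglia, 3 were higher at 0.05 (Cd63, Ctsd and Cd68) and 1 lower (the chemokine Ccl6, -0.66). Of 21 interferon-stimulated genes 17 were lower with a median of -0.23, and of 14 genes of MHC class I antigen presentation 10 were lower with a median of -0.10. In both lists 0 genes had an unadjusted p under 0.05. The interferon sum was 127, 206, 169 and 335 CPM in 3xTg-D and 207, 148, 163 and 232 CPM in 3xTg-S, and without 3xTg-D replicate 4 the median of the list turned to 0.311. The MHC class I median turned as well, to 0.138 without 3xTg-D replicate 4 and to 0.01 without 3xTg-S replicate 2. Of 14 complement genes 12 were higher (median 0.137), with Cd59a (0.38, unadjusted p = 0.0142) at 0.05, a gene that lies beside its paralog Cd59b and is uncertain.

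Lipid genes outside desaturation differed little. At an unadjusted p under 0.05, 5.65% of all genes were higher and 5.51% lower. In the list of fatty acid synthesis and elongation, 15 of 21 were lower with a median of -0.04. Acsl4, which activates polyunsaturated fatty acids, was at 148, 139, 139 and 148 CPM in 3xTg-D and 135, 129, 126 and 131 CPM in 3xTg-S, without overlap (-0.14, SE 0.05, unadjusted p = 0.00946), and -0.09 (unadjusted p = 0.0771) after the correction. Acsl3 (-0.12) and the elongase Elovl6 (-0.16) were lower, and Hacd1 (0.37) and Tecr (0.12), enzymes of the elongation cycle, higher at an unadjusted p under 0.05. Of 21 genes of cholesterol synthesis and its regulation, 15 were lower (median -0.05), with Hsd17b7 (-0.23) and Stard4 (-0.19) at 0.05. The other lipid lists had medians between -0.07 and 0.04. At 0.05 they held the lipase Lipe (-0.32) among 17 genes of triglycerides, Pdk4 (-0.39) among 22 of fatty acid oxidation, and Clu (0.14), Npc2 (0.16) and Abca7 (-0.42) among 17 of lipid transport. Of these, 3xTg-D replicate 3 was the highest library for Lipe, Pdk4 and Abca7.

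Among the other neuronal lists, 13 of 21 immediate-early genes were higher, with a median of 0.172 and 0.095 in the 2 fits. This direction rested on 3xTg-S replicate 2, without which the medians were -0.031 and -0.043. Only Egr2 had an unadjusted p under 0.05, at 0.569 to 1.38 CPM in 3xTg-D and 2.21, 2.5, 0.885 and 1.09 CPM in 3xTg-S (0.94, SE 0.37, unadjusted p = 0.0261). The neuropeptide Cck was at 197, 183, 146 and 191 CPM in 3xTg-D and 216, 258, 221 and 213 CPM in 3xTg-S (0.34, unadjusted p = 0.00243, and 0.20, unadjusted p = 0.0141 after the correction), which its length of 799 nt made sensitive to the trend. Of 17 markers of hippocampal subfields 7 were higher and 10 lower, with a median of -0.005. Bok, a BCL-2 family protein used as such a marker, was the 1 that passed, and without the correction only. It was at 31.1 to 41.7 CPM in 3xTg-D and 39.6 to 51.6 CPM in 3xTg-S (0.35, unadjusted p = 0.00521). Of 16 clock genes 13 were lower, and the clock output factor Dbp was higher at 55.4 to 67.8 CPM in 3xTg-S against 38.8 to 54.8 CPM in 3xTg-D (0.34, unadjusted p = 0.00477, and 0.27, unadjusted p = 0.0217). Of 17 Alzheimer risk genes and 18 genes of the stress response of the endoplasmic reticulum, 0 passed at 0.01.

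**Figure D4:**
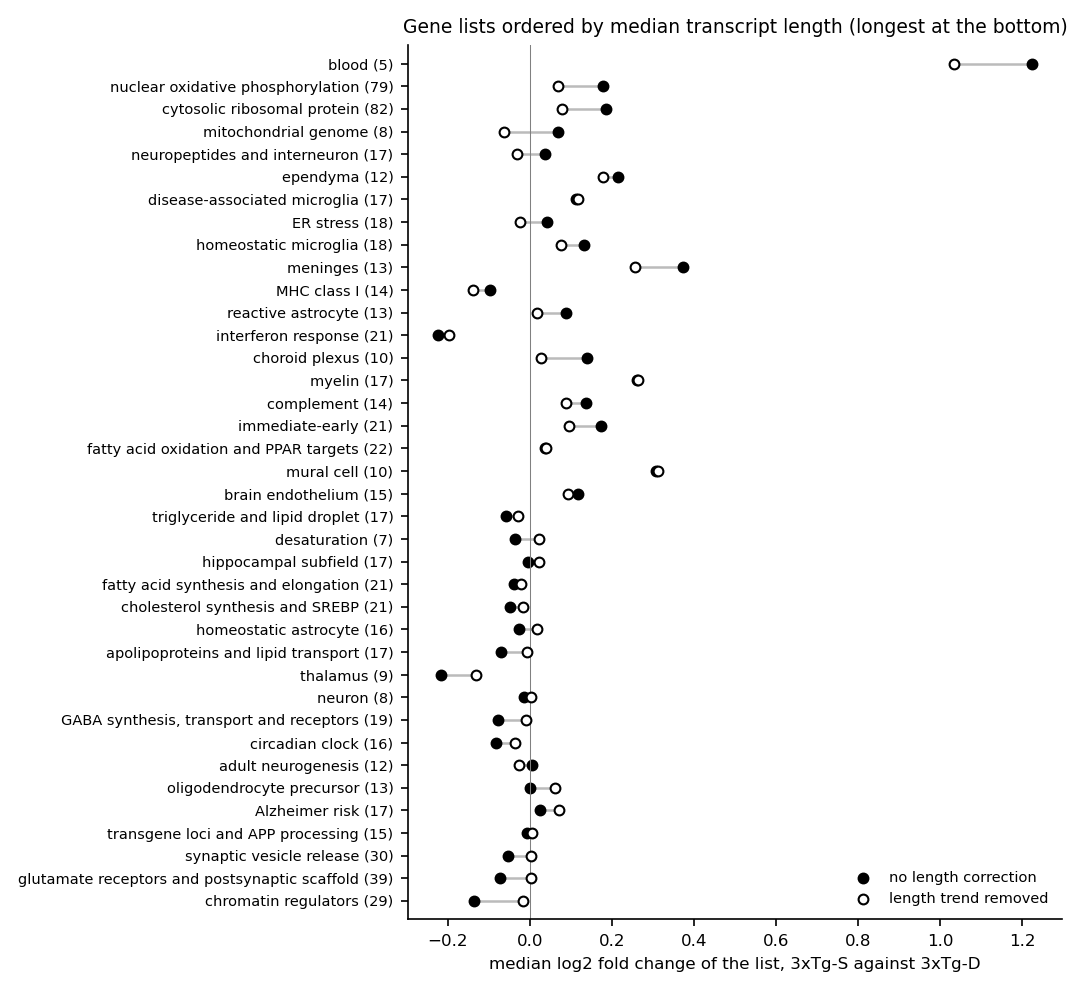
The median log2 fold change (x axis) of each gene list between 3xTg-S and 3xTg-D without correction (filled) and with the length trend removed (open), with the number of genes tested in brackets and lists ordered by median transcript length. Lists of short genes such as oxidative phosphorylation (0.178 to 0.069) and lists of long genes such as chromatin regulators (-0.14 to -0.02) move towards 0, while myelin (0.261 to 0.262) and mural cells (0.306 to 0.312) stay in place.

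Whether the inhibitor changed the same genes in WT mice was asked in WT-S against WT-D, which shares no library with the 3xTg comparison. It called 0 of 15724 genes (0%, edgeR, smallest adjusted p 0.981), with 538 genes (3.42%) at an unadjusted p under 0.05 and 59 (0.375%) at 0.01, where 1% is 157. Without WT-S replicate 3, an alternative chosen after seeing the data, 110 passed at 0.01. Of the 390 genes that passed in 3xTg and were tested in WT, 347 (89%) had the same sign in WT, against 63.7% of all genes. The size was smaller, with a median log2 fold change in WT of 0.099 for the higher genes (0.269 in 3xTg, the contrast that chose them) and -0.115 for the lower genes (-0.228). Length was shared by both comparisons, with a Spearman's rho of log2 fold change and length of -0.279 in WT across genes. With the trend removed in both strains, 98 of 121 genes (81%) had the same sign, against 57.9% of all genes. Without 3xTg-S replicate 2, and with the trend removed, it was 71 of 89 (79.8%, against 58.6% of all genes), an alternative chosen after seeing the data.

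The interaction of strain and inhibitor, tested over the 15 libraries of 10 months, called 0 of 16262 genes (0%, edgeR, smallest adjusted p 0.4). Of these, 377 (2.32%) had an unadjusted p under 0.05 and 57 (0.351%) under 0.01, where 1% is 163. With the length trend removed it was 54 genes at 0.01 (0.332%) and 0 called. Of the 87 genes that passed in both 3xTg fits, 86 were tested in WT, and with the trend removed 69 had the same sign there. In 82 of the 86 the WT difference was the smaller, in genes that were chosen for their size in 3xTg. With the trend removed, 27 of the 86 had an unadjusted interaction p under 0.05, against 375 of all 16262 genes. The interaction uses the same 3xTg libraries that chose these genes, so small p-values among them were favoured in advance. Among the 86, without the correction, Atox1 had a log2 fold change of 0.05 in WT (interaction, unadjusted p = 0.00244). Fa2h had -0.15 (interaction, unadjusted p = 0.0096). Hes5, which is not 1 of the 86, had -0.30 in WT (interaction, unadjusted p = 0.00341). Vim was near the same in both strains, at 0.32 in 3xTg and 0.34 in WT (interaction, unadjusted p = 0.906). No adjusted interaction p was under 0.05, so a response particular to 3xTg was not shown for any of these genes.

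**Figure D5:**
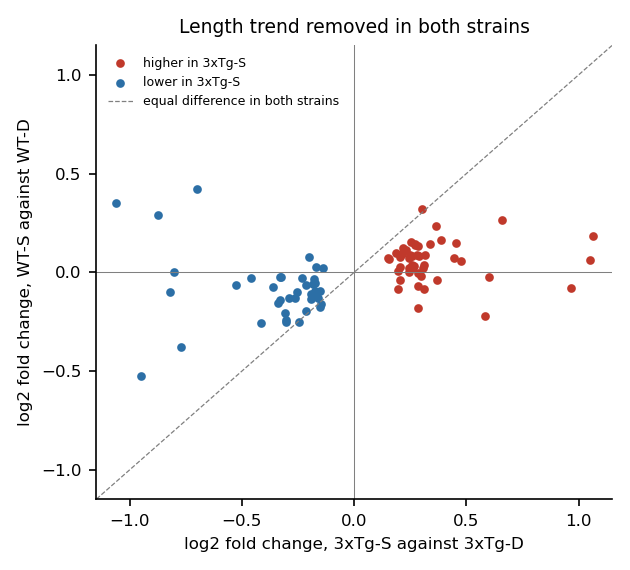
The log2 fold change between inhibitor and vehicle in WT (y axis) against that in 3xTg (x axis), both with the length trend removed, for the 86 genes past 0.01 in both 3xTg fits that were tested in WT (red, 47 higher in 3xTg-S, blue, 39 lower). Most points lie between the horizontal axis and the dashed line of equal difference, and 69 of 86 have the same sign in both strains.

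The study also asked whether the inhibitor brings expression in 3xTg mice towards WT. Strain-different genes were therefore taken from the untreated mice of 8 months, which share no library with 3xTg-S or 3xTg-D. In 3xTg-8M against WT-8M, 399 of 15483 genes (2.58%) were called, or 569 (3.67%) with the length trend removed. Of the called genes tested here, 148 of 355 (41.7%) had the opposite sign in 3xTg-S against 3xTg-D, against 37.7% of all genes. At 0.01, 1 of them was opposite and 5 the same. With the trend removed in both, 264 of 524 (50.4%) were opposite, against 42.2% of all genes, with 2 opposite and 2 the same at 0.01. The median absolute strain difference of the 524 genes was 0.49 on the log2 scale, and the median of their inhibitor difference, signed by the strain difference, was -0.001.

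The genes that passed in 3xTg-S against 3xTg-D were also compared with the strain difference at 8 months. Of 390 tested in both, 340 (87.2%) had the same sign in 3xTg-8M against WT-8M, against 62.4% of all genes, and 277 (71%, against 54.5% of all genes) without 3xTg-8M replicate 4, the library with the steepest length slope. With the trend removed in both, it was 94 of 120 (78.3%, against 57.8% of all genes). Both alternatives were chosen after seeing the data.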

How the data were processed

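The authors sequenced poly(A) RNA of whole hippocampus as single-end reads. The submitters' processing notes name Trimmomatic 0.35, STAR 2.5.1b and GRCm38, and the methods name Gencode M23. The deposited values are raw gene counts from the authors' STAR run, for 55335 genes in 1 table. How strand was treated, and whether duplicates were removed, is not given in the sources used here, so genes that overlap on opposite strands cannot be told apart, and PCR duplicates are part of counting error. The 4 lines that name no gene, 25.2% to 27.5% of the reads in these 8 libraries, were left out of library sizes.

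Groups came from the sample titles, which give each animal a number. Counts were tested with edgeR 4.0.16 (R 4.3.3, limma 3.58.1) by the quasi-likelihood test after filterByExpr and TMM scaling, on the 8 libraries alone. CPM values in the text are edgeR's, on library sizes scaled by TMM. For the length correction, log2 CPM (prior count 2), centred on the mean of the libraries, was fitted per library by a natural spline (4 degrees of freedom) on the log2 length of the longest transcript, and the fit entered edgeR as an offset. Lengths came from Gencode M21, where 99.67% of the tabulated genes were found. The same tests were run on WT-S against WT-D, on 3xTg-8M against WT-8M and, as an interaction, on the 15 libraries of 10 months. Library measures were compared by a two-sided exact permutation test. The tests were checked on simulated counts. Motifs were sought on both strands in RefSeq promoters.

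Members, gene lists and tests were chosen with earlier results of these data known. Genes were named by rule. Eligible genes had a mean of 5 CPM or more and groups that did not overlap. Of these, the 12 largest in each direction with p under 0.01 in both fits were taken, and the 3 largest in each direction with p under 0.01 in only 1 fit. All desaturation genes, all listed genes with p under 0.01 in either fit, and the transgene loci were added. Some genes that the rule named are not reported here. Listed genes with an unadjusted p between 0.01 and 0.05 are named as examples of their list and were chosen after their values were seen. The alternatives were DESeq2 1.42.0, its size factors, no filter on low counts, 15 libraries in 1 fit, a block on animal numbers, other length and GC trends, and each replicate left out. Lists were named by the function of their genes, and 39 sets, all tested genes included, were summarised by counts and medians.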

Additional observations from a re-analysis of the deposited data

Results flagged for a closer look

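Within each group of 4 libraries, 1 library was set against the other 3 in 268 tests, each of 1 measure in 1 group. The measures were library measures, list scores and log2 CPM of named genes. In 21 of the tests (7.84%) the library farthest from the others lay at more than the 95% limit of Dixon's gap ratio, where chance gives about 1 in 20. Of the 21, 7 were in 3xTg-D replicate 3 and 7 in 3xTg-S replicate 2.

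In 3xTg-D replicate 3, the score of fatty acid oxidation (mean centred log2 CPM of the list) was 0.13, against -0.06 to -0.04 in the other 3xTg-D libraries, and that of lipid transport was 0.12, against -0.05 to -0.03. In the same library the log2 CPM of Hes5 was 1.0 (others 2.23 to 2.36), of Atp5d 6.42 (6.59 to 6.62) and of Mapt 8.91 (9.08 to 9.10), all low. It was high for E130102H24Rik at 3.32 (others 2.77 to 2.82) and for 5330434G04Rik at 3.95 (3.51 to 3.56). Both genes were lower in 3xTg-S, and Hes5 was higher.

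In 3xTg-S replicate 2, the library with the steepest length slope, the score of ribosomal proteins was 0.28, against 0.02 to 0.06 in the other 3xTg-S libraries. Its log2 CPM was high for Rpl32 at 7.23 (others 6.99 to 7.03), Rpl14 at 6.04 (all others 5.62), Cox7b at 7.67 (7.31 to 7.36), Atp5e at 6.66 (6.19 to 6.25), Enho at 5.13 (4.68 to 4.73) and S100b at 7.38 (7.05 to 7.09).

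In 3xTg-S replicate 3 the score of cholesterol synthesis was -0.19 (others 0.01 to 0.05), that of subfield markers 0.1 (-0.04 to -0.02) and the log2 CPM of Olfm3 4.34 (4.66 to 4.72). In 3xTg-S replicate 4 the score of ependymal markers was -0.46 (others 0.24 to 0.33) and the log2 CPM of Gad2 7.58 (7.46 to 7.47). In 3xTg-D replicate 1 the slope of expression on GC content was -0.00507 (others -0.00262 to -0.00233) and the log2 CPM of Rpl18 was 3.93 (3.70 to 3.72). The cause of these values was not tested.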

How the results depend on the processing

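At an adjusted p under 0.05, edgeR without a filter on low counts called 112 genes (80 length corrected), and DESeq2 called 14 (0 length corrected). Of the 112, 103 were also tested with the filter, as were 69 of the 80. The median of the mean counts was 554 for the 112 genes and 304 for the 80. Leaving out a replicate gave 0 to 1 calls in both fits, the 1 being Gm43333 without 3xTg-S replicate 3. At an unadjusted 0.01, no filter gave 884 genes uncorrected and 541 corrected, and a trend on the median transcript length 284. All 15 libraries in 1 fit gave 428 genes, 286 of them higher, so the split between directions moved. With length and GC trends removed it was 130, 89 of them higher.

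Leaving out a replicate gave 177 (without 3xTg-D replicate 2) to 522 (without 3xTg-S replicate 3) genes uncorrected, and 91 (without 3xTg-S replicate 2) to 252 (without 3xTg-D replicate 4) corrected. It was also over 1.5 times fewer uncorrected without 3xTg-S replicate 1 (254) or replicate 2 (212). The slope difference ranged from -0.0799 to -0.0453. Without a 3xTg-D library its exact permutation p was 0.0571.

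Genes with the same sign in WT numbered 98 with the trend removed in both strains, 185 without 3xTg-S replicate 2, 71 with both changes and 311 without WT-S replicate 3. For the strain difference at 8 months they were 94, 178, 277 without 3xTg-8M replicate 4 and 85 with that and the trend removed. WT-S against WT-D gave 110 genes at 0.01 without WT-S replicate 3. With the trend removed, list medians moved from -0.136 to -0.019 for chromatin regulators, -0.036 to 0.022 for desaturation, 0.185 to 0.077 for ribosomal proteins and 0.178 to 0.069 for oxidative phosphorylation.

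Of 70 named genes that passed uncorrected, 34 passed with the trend removed, 40 without 3xTg-S replicate 2 and 33 without 3xTg-D replicate 2, and none past the threshold changed sign. Runs of 4 animal numbers do not pair the samples (r of deviations -0.095 to 0.034 within runs). A replicate block on these numbers gave 308 genes at 0.01 (128 corrected), 0 calls by adjusted p, and 48 of the 70. The filter on low counts limited which genes entered the tests. Of 55335 genes, 34928 had a count in the 23 libraries of the series and 30702 in these 8, of which 15530 passed the filter.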

Other observations

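Gm43333, a predicted gene on chromosome 5 (104070064 to 104072325, GRCm38) that overlaps Gm17660 on the same strand, varied widely between animals and was picked out after its values were seen. It held 160, 126, 1 and 271 counts in 3xTg-S and 2, 3, 1 and 3 counts in 3xTg-D, so that 3xTg-S replicate 3 was at the level of 3xTg-D. The filter on low counts left it out with all 8 libraries, and without 3xTg-S replicate 3 its log2 fold change was 6.25 (edgeR, adjusted p = 3.97e-05). In the other libraries it held 77, 6, 5 and 6 counts in WT-D, 5, 624 and 18 in WT-S, 287, 1, 231 and 783 in WT-8M, and 725, 9933, 33 and 185 in 3xTg-8M. High and low libraries were thus present in 5 of the 6 groups, 3xTg-D being the exception.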
